A study of Mus musculus with 6 samples.

Results

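The circadian clock genes were read in epididymal white fat of mice that carry a fat-cell transgene and of their wild type controls. They were 10 genes, Clock, Per1, Per2, Per3, Cry1, Cry2, Nr1d1, Nr1d2, Dbp and Tef, chosen by name with earlier results of these data known. Their 24 probe sets, each assigned to 1 gene by the platform annotation, were taken from 45101 probe sets of 18194 genes. A probe set is a group of short array sequences that together report 1 transcript. The study compared 3 transgenic males (aP2-nSREBP1c, strain C57BL6;SJL) with 3 litter-matched WT males (strain C57BL6;SJL), all 10 weeks old, 1 mouse per Affymetrix MOE430v2.0 array. The transgene carries the nuclear form of SREBP-1c, which switches on genes of lipid synthesis, under the aP2 promoter of fat cells. The strain labels spell the transgene in a different way for each of the 3 transgenic mice, and the sample descriptions call these mice lipodystrophic, a term for missing or badly formed fat. The question set by the labels is which transcripts differ in such fat. The hour of tissue collection, the light cycle and the feeding state were not given in the sources used here, and each mouse gives 1 time point, so the values below are levels at an unstated phase of the day and say nothing of rhythm or amplitude.

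The molecular clock is a feedback loop that runs in nearly every cell, fat cells included. CLOCK pairs with BMAL1 (gene Arntl) and binds E-box sequences to switch on the Per and Cry genes, whose proteins return to the nucleus and inhibit that pair. The same pair switches on Nr1d1 and Nr1d2, which encode the REV-ERB receptors that repress Arntl, and Dbp and Tef, which encode PAR bZIP factors that bind D-box sequences and carry the rhythm to other genes, Per genes among them. In fat, clock outputs are known to include genes of lipid handling and of NAD synthesis.

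Since the regulatory loop runs through short promoter sequences, the windows of Per1, Cry1, Tef and Per3 that hold them are shown first. They are RefSeq windows (build GRCm38.p6) from 250 bases before to 50 bases after a start site, printed 5′ to 3′ on the gene's strand. The capitals mark the E-box CACGTG in Per1, Cry1 and Tef and the D-box TTANGTAA in Per3.
Per1, chr11:69098699-69098998, plus strand: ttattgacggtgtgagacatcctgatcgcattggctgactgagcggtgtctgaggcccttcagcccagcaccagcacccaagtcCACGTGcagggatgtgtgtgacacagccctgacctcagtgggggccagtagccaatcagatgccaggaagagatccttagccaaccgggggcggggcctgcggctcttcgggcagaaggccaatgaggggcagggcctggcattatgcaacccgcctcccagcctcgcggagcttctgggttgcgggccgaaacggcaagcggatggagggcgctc
Cry1, chr10:85185005-85185304, minus strand: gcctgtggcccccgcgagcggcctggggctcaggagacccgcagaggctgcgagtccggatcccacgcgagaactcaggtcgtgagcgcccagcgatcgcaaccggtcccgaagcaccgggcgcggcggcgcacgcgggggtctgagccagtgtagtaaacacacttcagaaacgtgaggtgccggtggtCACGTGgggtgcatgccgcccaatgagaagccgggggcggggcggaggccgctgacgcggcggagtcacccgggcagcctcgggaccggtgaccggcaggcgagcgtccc
Tef, chr15:81802423-81802722, plus strand: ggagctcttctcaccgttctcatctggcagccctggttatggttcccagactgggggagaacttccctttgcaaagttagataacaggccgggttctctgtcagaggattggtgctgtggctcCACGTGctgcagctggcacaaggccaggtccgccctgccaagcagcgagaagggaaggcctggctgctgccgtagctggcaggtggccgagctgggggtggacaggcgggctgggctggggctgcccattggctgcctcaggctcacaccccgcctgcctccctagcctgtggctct
Per3, chr4:151044616-151044915, minus strand: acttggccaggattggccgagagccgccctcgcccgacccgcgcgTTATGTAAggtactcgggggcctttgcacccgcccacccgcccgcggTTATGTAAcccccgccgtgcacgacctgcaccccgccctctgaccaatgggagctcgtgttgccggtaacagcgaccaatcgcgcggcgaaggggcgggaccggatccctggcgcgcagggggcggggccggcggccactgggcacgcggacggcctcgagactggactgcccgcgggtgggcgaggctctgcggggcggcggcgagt
The table held 13 such windows for 9 of the 10 genes. CACGTG, which reads the same on both strands, was in 4 of these windows (3 genes: Per1, Cry1 and Tef, the latter in both of its windows), against 7.15% of all 32851 windows. TTANGTAA, searched on both strands, was in the window of Per3, 2 times, and in 2.32% of all windows. AGGTCA, the half-site bound by REV-ERB and other nuclear receptors, was in 1 window each of Clock, Per1 and Nr1d2 and in 16.3% of all windows, on either strand. No overlap between different motifs was seen in these windows. The windows of Cry2, Nr1d1 and Dbp held none of these 3 letter strings, which says only that they are not in these stretches.

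The deposited value is a MAS5 signal, a linear brightness per probe set. Differences were tested with limma on log2(signal + 16), and adjusted p-values are Benjamini-Hochberg values over the 27023 probe sets kept by a filter on low mean signal. A gene is read at its brightest tested probe set over all 6 arrays, and a call means an adjusted p under 0.05. Of the 24 probe sets 21 passed the filter, with at least 1 for each of the 10 genes. On the array of transgenic replicate 2 the 3′ over 5′ signal ratio of the beta-actin control was 122, against 1.11 to 1.81 on the other 5 arrays, a usual sign of shortened RNA. The ratio of the Pcx control split the arrays in another way, at 3.06 (wild type replicate 3) and 3.10 (transgenic replicate 1) against 14.1 to 52.0 on the other 4. The values of the clock genes are therefore also given without transgenic replicate 2. Fat cell markers read from 227 (Cidec, transgenic replicate 2) to 14121 (Fabp4, wild type replicate 3) at their brightest sets. Their summed signal over 9 genes was 67864 to 75087 in wild type and 42476 to 52291 in transgenic fat, where 2 of 9 (Adipoq and Lep) fell and 0 rose. Much of the sum came from Fabp4 and Lpl, which differed little between the groups and read near the largest signal of 15133. Other sets of Fabp4 had log2 fold changes of −0.03, −0.73 and −2.47 (limma adjusted p = 0.925, 0.235 and 0.247). The summed signal of 7 macrophage markers was 13139 to 15294 in wild type and 19682 to 26771 in transgenic fat, with 0 of 7 called, and that of 5 endothelial markers was 5152.5 to 5635 and 1369 to 3668, with 0 of 5 called. Without transgenic replicate 2, 6 of 9 fat cell markers and 4 of 5 endothelial markers fell and 3 of 7 macrophage markers rose. Over all 34 tested markers of these and other cell types 2 fell and 0 rose, or 12 fell and 4 rose without that array. Of all genes 1.54% fell and 2.23% rose, or 7.33% fell and 8.04% rose without that array. The T cell marker Cd3e, 1 of the 4 that rose, read 51.9, 20.2 and 27.8 in wild type and 84.2, 81.2 and 116 in transgenic fat. It passed the filter only through its transgenic signals, so the count of 4 cannot be set against the share of all genes. In whole tissue, fewer cells of a type and less RNA per cell cannot be told apart, and the part of these shifts in the clock gene values was not tested.

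Between transgenic and wild type fat 0 of the 10 clock genes passed the limma test, where 3.77% of 13112 genes did (2.23% higher, 1.54% lower). Of their 21 tested probe sets 0 passed, where 2.97% of all probe sets did. At an unadjusted p under 0.05 the count was 3 of 10 (Per3, Cry1 and Cry2), against 18.4% of all genes. Signals in the 2 groups did not overlap for 5 of the 10 genes, a share to be read against 30.4% of all genes. Per1, Per3, Cry2 and Tef lay lower on every transgenic array (16.3% of all genes did so) and Cry1 lay higher on every one (14.1%). The median log2 fold change of the 10 genes was −0.52, beside −0.04 over all genes. Without transgenic replicate 2 the count passing the test was again 0 of 10, where 15.4% of all genes passed, and 6 of 10 had an unadjusted p under 0.05, where 29.3% did. The same 5 genes were without overlap, 4 lower and 1 higher, against 46.5% of all genes (22.4% lower, 24.1% higher). The median was then −0.45, beside 0.02 over all genes. As the 10 genes were chosen with earlier results of these data known, these shares and medians are given as a description.

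**Figure D1:**
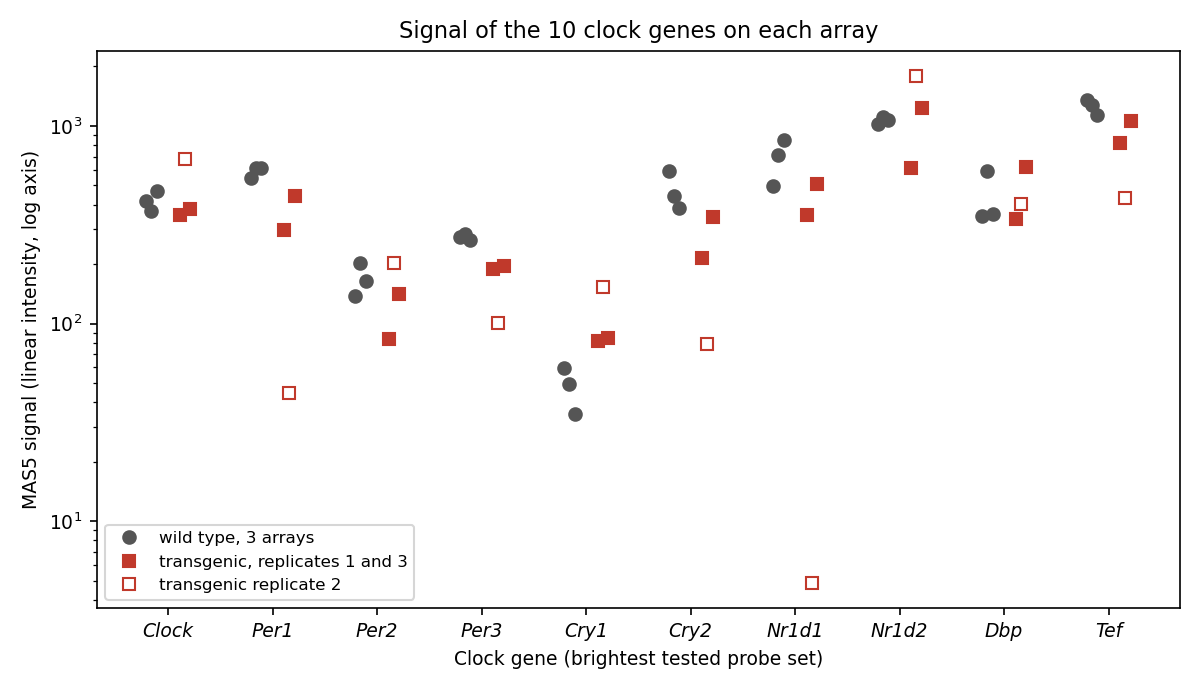
Signal of each of the 10 clock genes on each of the 6 arrays (linear MAS5 intensity on a log axis; circles, 3 wild type arrays; squares, 3 transgenic arrays, with replicate 2 open). The transgenic points of Per1, Per3, Cry2 and Tef lie below and those of Cry1 above all wild type points, and the open square of Nr1d1 is at 4.9.

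**Figure D2:**
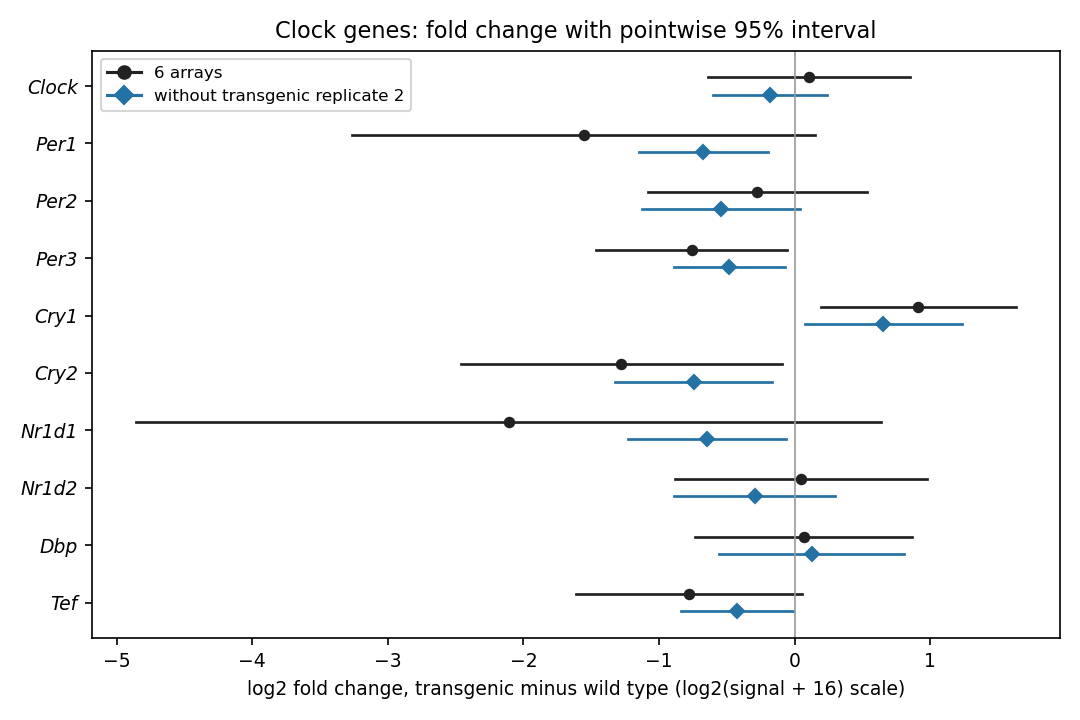
Log2 fold change (transgenic minus wild type, on the log2(signal + 16) scale) of the 10 clock genes with pointwise 95% intervals, from all 6 arrays (circles) and without transgenic replicate 2 (diamonds). The interval of Nr1d1 runs from −4.85 to 0.63 with all arrays and from −1.23 to −0.06 without that array.

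Clock encodes the activator that forms the positive limb with BMAL1. Its brightest probe set (1418659_at) read 419.5, 373 and 469 in wild type replicates 1, 2 and 3 and 356, 681 and 379 in transgenic replicates 1, 2 and 3. The groups overlapped, with transgenic replicate 2 the highest of all 6. The log2 fold change was 0.11 ± 0.31 SE (limma adjusted p = 0.884, 95% interval −0.64 to 0.85). Leaving that array out gave −0.18 (adjusted p = 0.601). Its 3 other probe sets had −0.11, −0.52 and −0.30, or −0.49, −0.73 and −0.32 without it. For 1418660_at, which read 345, 235 and 277 in wild type and 155, 261 and 174 in transgenic fat, transgenic replicates 1 and 3 lay below all wild type mice and replicate 2 did not. Without replicate 2 this set had −0.73 ± 0.21 SE (limma adjusted p = 0.0560).

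The Per genes encode the PERIOD repressors of the loop. Per1 (1449851_at) read 548, 612 and 614 in wild type replicates 1 to 3 and 298, 44.6 and 444.5 in transgenic replicates 1 to 3. All transgenic arrays lay below all wild type arrays, replicate 2 by far the most. Wild type fat averaged 591 ± 38 (SD, n = 3), and transgenic fat 262.5 ± 202 (SD, n = 3). Its log2 fold change was −1.56 ± 0.72 SE (limma adjusted p = 0.348), which with transgenic replicate 2 left out was −0.67 ± 0.21 SE (adjusted p = 0.0693), or 0.627 times the wild type level. Quantile normalization of these 5 arrays gave −0.69 (adjusted p = 0.0193).

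Per2 gave different values at its probe sets. The brightest set (1417602_at) read 137, 203 and 163.5 in wild type and 83.5, 202 and 141 in transgenic fat, where the groups overlapped. Its log2 fold change was −0.28 ± 0.34 SE (limma adjusted p = 0.710). With transgenic replicate 2 left out this set had −0.54 ± 0.26 SE (adjusted p = 0.225), again with overlap. A second set (1457350_at) read 131, 159.9 and 109.8 in wild type and 48.0, 44.7 and 71.0 in transgenic fat, so that all 3 transgenic mice lay below all 3 wild type mice. This set had −1.09 ± 0.25 SE (limma adjusted p = 0.0817), the lowest adjusted p of the 21 tested sets. Without transgenic replicate 2 it was the 1 set of the 21 that passed the test (−0.99 ± 0.25 SE, adjusted p = 0.0277), where 13.2% of all probe sets passed. The third set of Per2 read between 2.6 and 70.8 and did not pass the filter.

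Per3, the third PERIOD gene, has 6 probe sets, all tested. The brightest (1421087_at) read 273, 285 and 266 in wild type and 189.7, 100.7 and 195 in transgenic fat. The wild type mice lay close together and every transgenic mouse lay below them. The fit gave −0.76 ± 0.30 SE (limma adjusted p = 0.273). Leaving out transgenic replicate 2 gave −0.48 ± 0.18 SE (adjusted p = 0.126). A dimmer set (1460662_at) read 61.0, 80.6 and 87.3 in wild type and 48.6, 25.2 and 38.0 in transgenic fat, again without overlap (−0.81 ± 0.26 SE, limma adjusted p = 0.182; −0.63 and 0.141 without transgenic replicate 2). The other 4 sets overlapped, with log2 fold changes of −0.30, 0.18, −1.57 and −0.42, or −0.18, 0.07, −0.95 and −0.13 without that array. The widest of them, 1458176_at, read 257 (wild type replicate 3) and 156 (transgenic replicate 1) on the 2 arrays of low Pcx ratio, and 4.6 to 103 on the other 4. These 2 arrays were also the highest of their groups at 1460662_at (87.3 and 48.6) and at 1421086_at (69.8 and 53.5). The part of the Pcx ratio in these values was not tested.

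CRY1 and CRY2, the CRYPTOCHROME partners of the PER proteins, had estimates of opposite sign. Cry1 (1433733_a_at, its 1 probe set) read 59.5, 49.4 and 34.8 in wild type and 82.0, 154 and 84.7 in transgenic fat, with each transgenic mouse above each wild type mouse. The log2 fold change was 0.91 ± 0.30 SE (limma adjusted p = 0.198, 95% interval 0.20 to 1.63), a fitted ratio of 1.88. As the signals are dim, this value depends on the number added before the logarithm (1.11 with 1, 0.59 with 64). Without transgenic replicate 2 it was 0.66 ± 0.26 SE (adjusted p = 0.139).

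Cry2 (1426383_at, also 1 probe set) read 593, 444 and 385 in wild type and 214, 79.0 and 345 in transgenic fat. Each transgenic mouse lay below each wild type mouse, and replicate 3 came close to the lowest of them. Its log2 fold change was −1.28 ± 0.50 SE (limma adjusted p = 0.272, 95% interval −2.46 to −0.09). It was −0.74 ± 0.26 SE (adjusted p = 0.0978) without transgenic replicate 2, and −0.76 (adjusted p = 0.0481) when those 5 arrays were also quantile normalized. The difference between the 2 Cry genes was not tested.

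Nr1d1 and Nr1d2 encode REV-ERBα and REV-ERBβ, the heme-sensing receptors that repress Arntl. Nr1d1 (1426464_at) read 497, 716 and 852 in wild type and 354, 4.9 and 508 in transgenic fat. The value of transgenic replicate 2 was close to background, and replicate 3 lay just above the lowest wild type mouse. The log2 fold change of −2.11 ± 1.16 SE (limma adjusted p = 0.425) had the widest interval of the 10 genes. It was −0.64 ± 0.26 SE (adjusted p = 0.148) without transgenic replicate 2, or 0.640 times the wild type level.

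Nr1d2 (1416958_at) read 1023, 1110.3 and 1075 in wild type and 612, 1788 and 1230.2 in transgenic fat. The wild type mice differed little, and the transgenic mice lay on both sides of them. Its log2 fold change was 0.05 ± 0.39 SE (limma adjusted p = 0.961), −0.01 after quantile normalization and −0.29 (adjusted p = 0.542) without transgenic replicate 2. A second set of Nr1d2 read 2.1 to 135 and did not pass the filter.

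Dbp and Tef encode the D-box binding factors that pass the rhythm on. Dbp (1438211_s_at) read 349, 589.7 and 359 in wild type and 339.8, 405 and 619 in transgenic fat. In each group 1 mouse, wild type replicate 2 and transgenic replicate 3, stood well above the others, and the groups overlapped almost fully. The log2 fold change was 0.07 ± 0.34 SE (limma adjusted p = 0.934, 95% interval −0.73 to 0.87), and 0.13 ± 0.30 SE (adjusted p = 0.843) when transgenic replicate 2 was left out. The suffix _s marks a set whose probes may match more than 1 transcript. The other set (1418174_at) read 260.1, 350.2 and 269.9 in wild type and 294, 104.5 and 484 in transgenic fat and had −0.21 ± 0.52 SE (limma adjusted p = 0.859). Leaving out that 1 array turned its direction, to 0.36 ± 0.25 SE (adjusted p = 0.411). Here too wild type replicate 2 and transgenic replicate 3 were the highest of their groups.

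Tef (1424175_at) read 1359.9, 1273 and 1137 in wild type and 815.5, 434 and 1064 in transgenic fat. Every transgenic mouse lay below every wild type mouse, replicate 3 by little. Mean signals were 1257 ± 112 (SD, n = 3) against 771 ± 317 (SD, n = 3). Tef had a log2 fold change of −0.78 ± 0.35 SE (limma adjusted p = 0.335). Transgenic replicate 2 left out, it had −0.42 ± 0.18 SE (adjusted p = 0.181), and −0.45 (adjusted p = 0.0210) with these 5 arrays quantile normalized. A second set (1450184_s_at) read 9.7, 48.2 and 201 in wild type and 178, 34.3 and 73.6 in transgenic fat, highest on the 2 arrays of low Pcx ratio. It had 0.43 ± 0.83 SE (limma adjusted p = 0.817), which became 0.89 ± 0.73 SE (adjusted p = 0.497) when transgenic replicate 2 was left out. The third set of Tef read 21.2 to 46.1 and did not pass the filter. Wild type replicate 3 and transgenic replicate 1 were the highest of their groups at 5 of the 21 tested sets of the clock genes. This was so for 14.3% of all probe sets. At the brightest sets it was so for 0 of the 10 clock genes, against 5.8% of all genes.

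Per1, Cry2 and Tef were thus the 3 of 10 genes that passed the test, all lower, in 1 of 18 alternatives, the 5 arrays without transgenic replicate 2 after quantile normalization. In that setting 12.0% of all genes were called lower and 22.8% in either direction. At probe set level 5 of 21 passed it, all lower, against 9.47% of all probe sets, the other 2 being sets of Clock (1418660_at, −0.74, adjusted p = 0.0285) and Per2 (1457350_at, −1.03, adjusted p = 0.0355).

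The clock genes differed in how far the array of transgenic replicate 2 stood from the other transgenic arrays. It lay below both of them for Per1, Per3, Cry2, Nr1d1 and Tef and above both for Clock, Per2, Cry1 and Nr1d2, so 9 of 10 genes were outside their range, as were 85.3% of all genes. The gap to their mean log2 value ran from −4.40 for Nr1d1 and −2.65 for Per1 to 1.03 for Nr1d2. It was over 1 log2 unit for 5 of 10 genes and for 26.9% of all genes. Transgenic replicate 1 lay below replicate 3 for 10 of 10 genes, by ratios from 1.03 for Per3 and for Cry1 to 2.01 for Nr1d2. This was so for 82.1% of all genes on the deposited scale. After quantile normalization it was 7 of 10, beside 63.6% of all genes.

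**Figure D3:**
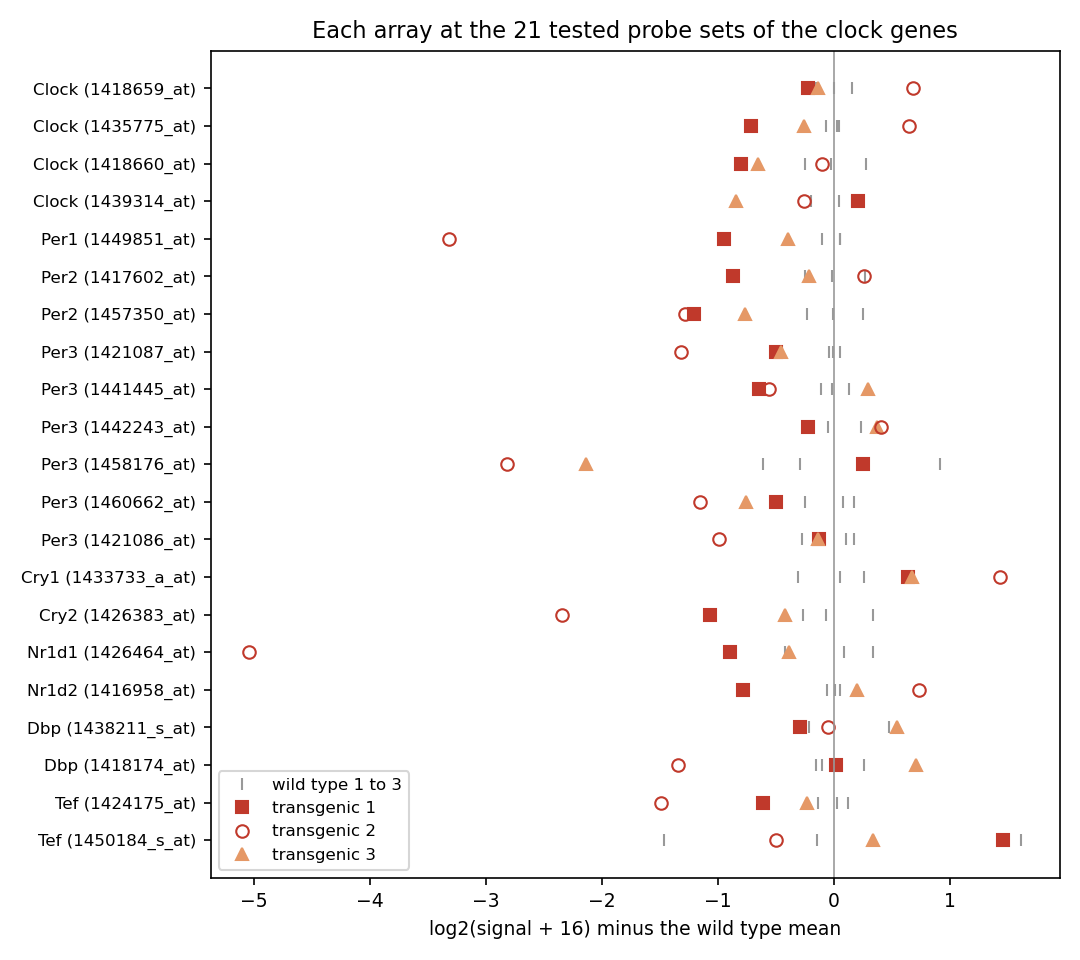
Log2(signal + 16) of each array minus the wild type mean, at the 21 tested probe sets of the clock genes (grey ticks, 3 wild type arrays; filled square, open circle and triangle, transgenic replicates 1, 2 and 3). Transgenic replicate 2 lies far to the left at Nr1d1, Per1, Cry2 and one set of Per3, and the sets of Clock and of Per2 do not give the same order of the arrays.

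Among the 3 wild type mice the spread also differed between genes. The SD of log2(signal + 16) was 0.41 for Dbp and 0.39 for Nr1d1, above that of 93.4% and 92.1% of all genes, whose median was 0.16. For Per3, Nr1d2 and Per1 it was 0.05, 0.06 and 0.09, below that median. These are values of the brightest sets. The other tested set of Dbp (1418174_at) had 0.22, above that of 70.5% of all genes, and the other sets of Per3 had 0.12 to 0.80. The 3 genes whose log2 values over the 6 arrays were most like those of Dbp were Clp1, Myo7b and Ado, with Pearson r of 0.96, 0.95 and 0.94. These are the highest of 13112 genes over 6 arrays that share their preparation, and are given as a description. The 3 genes had log2 fold changes of −0.01, 0.51 and −0.03 (limma adjusted p = 0.993, 0.713 and 0.961). As they were chosen to follow Dbp over these arrays, their not passing the test is no separate result.

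Of 32 further clock pathway genes 24 were tested, and 3 rose, 0 fell and 21 did not pass the limma test, where 2.23% of all genes rose and 1.54% fell. The 3 that rose, Usp2, Fabp7 and Elovl3, were listed as rhythmic output genes. This list was drawn up with the changes of Fabp7 and Elovl3 in these mice already known. Fabp7 also passed the filter only through its transgenic signals. Counts that hold Fabp7 and Elovl3, here and below, therefore cannot show a rise of the list beyond the share of all genes. The median log2 fold change of the 24 was 0.12, beside −0.04 over all genes. It turned to −0.04, beside 0.02 over all genes, without transgenic replicate 2. Without transgenic replicate 2, 6 rose, 0 fell and 18 did not pass, where 8.04% of all genes rose and 7.33% fell.

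The partners of CLOCK did not pass the test. Arntl (1425099_a_at), which encodes BMAL1, read 312, 168 and 244 in wild type and 199.8, 275 and 249.6 in transgenic fat, with full overlap. Its log2 fold change was 0.03 ± 0.30 SE (limma adjusted p = 0.970), or −0.06 (0.912) with transgenic replicate 2 left out. Npas2, a CLOCK paralog, and Arntl2 had −0.03 and 0.09, or −0.11 and 0.19 without it. Rora, the receptor that activates Arntl in competition with REV-ERB, had −0.26 (limma adjusted p = 0.667) at its brightest set, and its 7 other tested sets ran from −1.37 to 0.51, or from −0.38 to 0.28 without that array. Rorb, whose 3 sets read 1.0 to 43.7, did not pass the filter.

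Among the partners of Dbp and Tef, the third PAR bZIP gene Hlf had 0.05 (limma adjusted p = 0.947). With transgenic replicate 2 left out it had −0.09 (adjusted p = 0.880). Nfil3, which encodes the repressor that competes at D-boxes, read 109, 88.6 and 79.5 in wild type and 178, 67.5 and 227 in transgenic fat. Transgenic replicates 1 and 3 lay above all wild type mice and replicate 2 below them. It had 0.55 ± 0.42 SE (limma adjusted p = 0.547) and rose, on the log2 scale, by 1.01 ± 0.22 SE (adjusted p = 0.0158) without transgenic replicate 2.

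Bhlhe40 encodes DEC1, a repressor at E-boxes. It read 320.0, 319 and 198 in wild type and 485, 996 and 909 in transgenic fat, where all mice were above all wild type mice. It had 1.43 ± 0.36 SE (limma adjusted p = 0.106) and rose, on the log2 scale, by 1.24 ± 0.30 SE (adjusted p = 0.0257), or 2.36-fold, without transgenic replicate 2. The related Bhlhe41 and Ciart were dim (4.6 to 45.8 and 12.7 to 64) and did not pass the filter. Of 6 tested kinase and ubiquitin ligase genes and 4 cofactor genes, 0 passed the test with or without that array.

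Usp2, a deubiquitinase gene whose transcript cycles in many tissues, read 59.7, 89.1 and 71.6 in wild type and 239.6, 382 and 463 in transgenic fat. The lowest transgenic mouse was well above the highest wild type mouse. It rose 4.12-fold (log2 fold change 2.04 ± 0.31 SE, limma adjusted p = 0.0210). Its other set (1417168_a_at), with 84.9, 79.6 and 82.6 against 279.8, 155.5 and 309.8, had 1.37 (adjusted p = 0.0666), and rose by 1.66 (adjusted p = 0.000542) once transgenic replicate 2 was left out. The call was lost without wild type replicate 1, 2 or 3 (adjusted p = 0.137, 0.107 and 0.123) and without transgenic replicate 3 (0.0745), and held without transgenic replicate 2 (1.98, adjusted p = 0.00193).

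Nampt encodes the rate-limiting enzyme of NAD salvage. It read 830.4, 805 and 887 in wild type and 1628, 3157.5 and 2241 in transgenic fat, without overlap. It had 1.41 ± 0.28 SE (limma adjusted p = 0.0516), and rose 2.25-fold (1.17 ± 0.18 SE, adjusted p = 0.00298) without transgenic replicate 2. Its other sets disagreed in sign with 6 arrays (1.21 and −0.28), the last of them reading 3.3 in transgenic replicate 2 and 251 and 391.5 in replicates 1 and 3. Without that array both rose (0.85 and 1.08, limma adjusted p = 0.0226 and 0.0242).

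Fabp7, which encodes a fatty acid carrier best known from brain, read 29.0, 18.5 and 12.0 in wild type and 1284, 2504.5 and 1710.3 in transgenic fat. The wild type signals are close to background, so its log2 fold change of 5.66 ± 0.33 SE (limma adjusted p = 0.00115) depends on the number added before the logarithm (6.49 with 1, 4.45 with 64). It was 5.41 without transgenic replicate 2. Elovl3, a fatty acid elongase gene, read 48.8, 35.1 and 28.3 in wild type and 460.4, 124 and 402.5 in transgenic fat. On the log2 scale it rose by 2.52 ± 0.49 SE (limma adjusted p = 0.0467), and leaving out any 1 array but transgenic replicate 2 gave an adjusted p between 0.105 and 0.214. The call was also lost with 64 in place of 16 (0.0502), with no filter (0.0687) and with robust eBayes (0.0509). Without transgenic replicate 2 Elovl3 rose by 3.08 on the log2 scale (adjusted p = 4.84e-05).

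**Figure D4:**
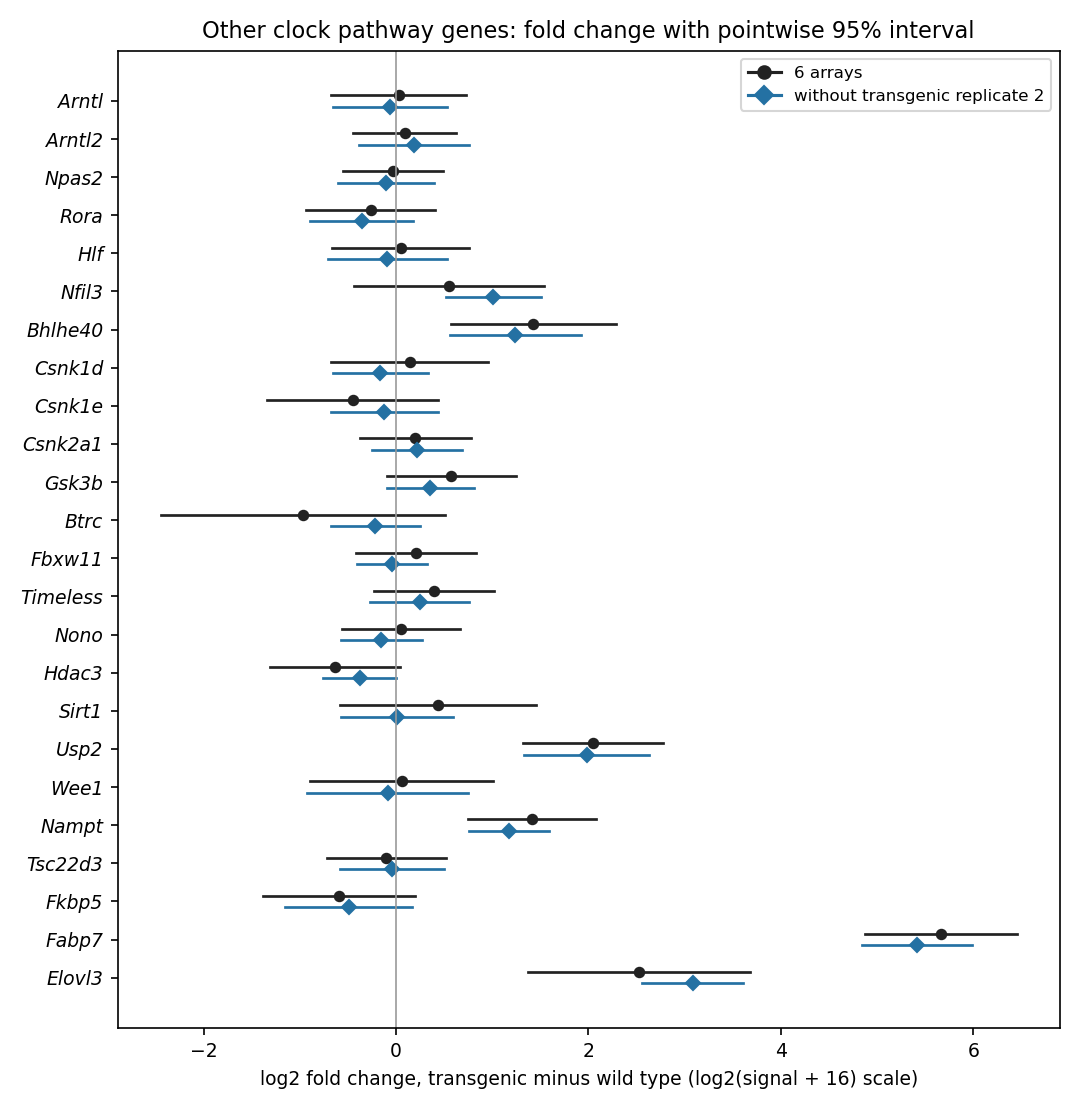
Log2 fold change (transgenic minus wild type, on the log2(signal + 16) scale) of the 24 tested further clock pathway genes with pointwise 95% intervals, from 6 arrays (circles) and without transgenic replicate 2 (diamonds). Arntl, Npas2 and Hlf lie near 0, and Usp2, Fabp7 and Elovl3 are the 3 genes called with 6 arrays.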

How the data were processed

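Total RNA of 6 fat pads was measured, 3 per group, 1 mouse per array. The deposited intensity is a linear MAS5 signal, per the submitters' processing notes. The software version and the scaling target were not given in the sources used here, and 0 columns of other samples are present. The number of arrays limits the precision, and each p-value reflects differences between mice as well as handling.

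Control probe sets (64) were dropped, and of the rest the dimmest 40% by mean log2(signal + 16) over 6 arrays. Group means of the other 27023 were compared with limma 3.58.1 in R 4.3.3 (lmFit, eBayes with trend, two-sided, no further normalization). Benjamini-Hochberg adjustment ran over all of them, with a threshold of 0.05. The code was checked on simulated data. Figures were drawn in Python 3.11.15 with matplotlib 3.10.9. Genes came from probe sets with 1 symbol in the platform annotation (34958 of 45101; 932 have several and 9211 none). Motifs were searched in RefSeq windows.

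The members and lists were chosen with earlier results of these data known. The text names all members, the loop partners on the further list, others of it past the threshold with all arrays or without transgenic replicate 2, and the 3 genes most like Dbp. The 18 alternatives varied the number added before the logarithm, the filter, the normalization, the limma options, the rule for genes with several probe sets, the replicate block and the arrays left out.

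No label ties the replicate numbers to litters, so the numbers were not taken as pairs. Same-numbered mice gave correlations of their deviations from the group means of −0.37, 0.09 and −0.05. Those of differently numbered mice ran from −0.27 to 0.45. With 3 mice per group these values cannot show whether same-numbered mice were littermates.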

Additional observations from a re-analysis of the deposited data

How the results depend on the processing

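With each array left out in turn, the count of clock genes past the threshold was 0 to 0, that of the further pathway genes 1 to 6, and that of all probe sets 141 to 3565 (802 with 6 arrays). Array weights gave 3359 probe sets and 6 further genes. Quantile normalization without transgenic replicate 2 gave 4976 probe sets, 6 further genes and 3 clock genes. With the replicate number as a block 341 probe sets passed, and 0 clock genes; in that fit 2 further genes passed, and Elovl3 had an adjusted p of 0.0502. The clock gene count was 0 under the other 17 of 18 settings. Estimates near 0 changed sign, and the cause was not tested. Clock was −0.073 with array weights, −0.21 as the mean of its sets, −0.18 without transgenic replicate 2 and −0.20 with quantile normalization as well (−0.18 to 0.27 with 1 array left out). Nr1d2 was −0.015 with quantile normalization, −0.078 with array weights, −0.29 and −0.03 without transgenic replicates 2 and 3, and −0.34 without replicate 2 after quantile normalization (−0.29 to 0.47). Dbp was −0.071 as the mean of its sets, −0.06 and −0.04 without wild type replicates 1 and 3 and −0.17 without transgenic replicate 3 (−0.17 to 0.30), and Per2 was 0.023 without transgenic replicate 1 (−0.54 to 0.023). Per1, Per3, Cry1, Cry2, Nr1d1 and Tef kept their sign under every setting that tested them (Cry1 was too dim for the stricter filter). Scaling moved the median log2 fold change over all probe sets from −0.09 to 0.02 (quantile) or 0.03 (median centring). Over all genes it moved from −0.04 to 0.06 or 0.08, and over the 10 clock genes from −0.52 to −0.32 or −0.40. Signals near the 16 added before the logarithm are close to background.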
